A study of Homo sapiens with 9 samples.

Results

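Peaks of the chromatin remodeler SWI/SNF were described at 10 genes of the Eph receptor and ephrin family in HepG2 cells, an established human hepatocellular carcinoma line. The genes were 5 receptors (EPHA1, EPHA2, EPHB2, EPHB3 and EPHB4) and 5 ephrins (EFNA1, EFNA3, EFNA4, EFNB1 and EFNB2). A peak belonged to a gene when the authors' nearest-gene column named it, and 22 of 34575 ARID peaks did so. These were 13 of 12852 ARID1A peaks, 2 of 8728 ARID1B peaks and 7 of 12995 ARID2 peaks. The 9 libraries came from untreated HepG2 cells: 2 replicates each of chromatin immunoprecipitated for ARID1A (sc-32761X), ARID1B (sc-32762X), ARID2 (A302-230A) and SNF5 (A301-087A), spelled Arid1a, Arid1b, Arid2 and Snf5 in the labels, and 1 input. No genotype, treatment or time differed between libraries, so the lists differ by the protein precipitated. The antibody, the depth of its libraries and the subunit cannot be told apart. Each subunit had 1 deposited peak list, made from merged replicates, so neither replicate error nor a test of a difference between subunits could be given, and the depth of each library is unknown. A position without a peak is a position where none was called, which is not the absence of binding.

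SWI/SNF uses ATP to move or evict nucleosomes, and its ARID subunits are alternatives. ARID1A or ARID1B marks the form called BAF, ARID2 marks the form called PBAF, and SNF5 (SMARCB1) is a core subunit of both. Eph receptors are receptor tyrosine kinases on the cell surface and their ligands, the ephrins, sit on the neighbouring cell. EFNA genes encode ligands held by a lipid anchor, which mostly bind EphA receptors, and EFNB genes encode ligands that span the membrane and mostly bind EphB receptors. Contact signals into both cells and sets adhesion, repulsion and tissue boundaries, and EPHA2 with its ligand ephrin-A1 is a receptor and ligand pair much studied in carcinomas. In the study the ARID subunits were lowered by knockdown and EPHA2 was one of the genes read out, and the comparison below sets the peaks at EPHA2 beside those of its family. It says nothing of expression, which was not analysed here.

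Peaks were assigned to 6 of the 10 genes. EFNA1 held 9 of the 22 peaks (40.9%), with 4 ARID1A, 1 ARID1B and 4 ARID2 peaks. EPHA2 held 3 ARID1A peaks and 0 of ARID1B and ARID2. EFNA3 held 2 ARID1A peaks and 1 ARID2 peak, EPHB4 held 1 peak of each ARID, EPHA1 held 1 ARID1A and 1 ARID2 peak, and EFNA4 held 2 ARID1A peaks. EPHB2, EPHB3, EFNB1 and EFNB2 had no peak in the 3 ARID lists. The receptors had 8 peaks on 3 of 5 genes, and the ephrins had 14 peaks on 3 of 5 genes. All 3 of those ephrin genes lie in a row on chromosome 1, in the order EFNA4, EFNA3 and EFNA1, and are read in the same direction.

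**Figure D1:**
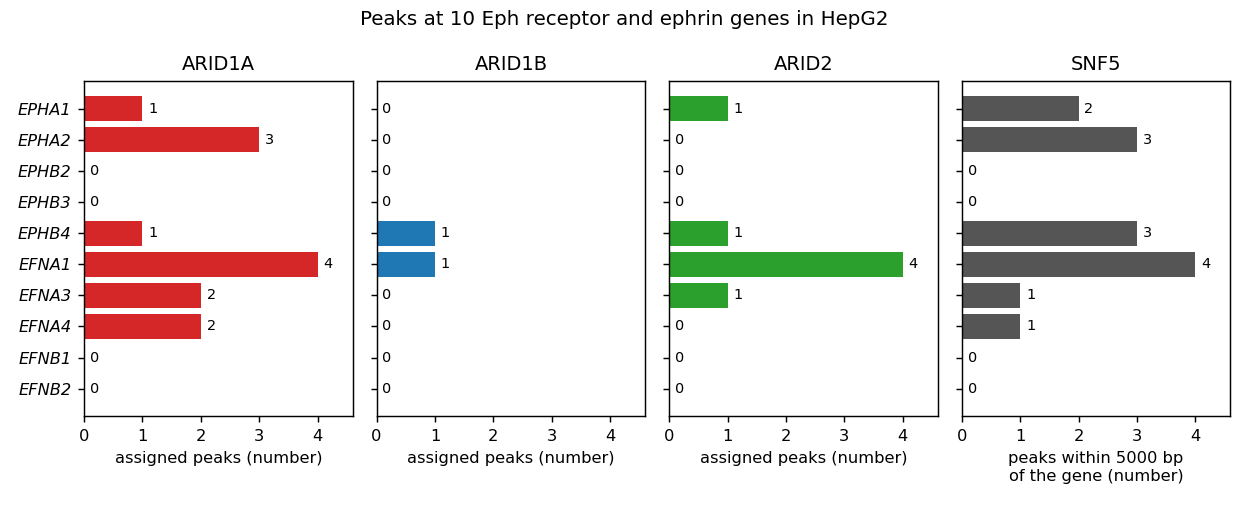
Number of peaks (horizontal axis) at each of the 10 genes (vertical axis). The ARID panels count assigned peaks and the SNF5 panel counts peaks within 5000 bp of the gene, since that list names no genes; EFNA1 has the longest ARID1A and ARID2 bars at 4, EPHA2 has 3 ARID1A peaks with none of ARID1B or ARID2, and 4 genes are at 0 in every panel.

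The most widely shared stretch at 3 genes is printed here because it is where the lists meet. Each line is a 200 bp window of hg19 (GRCh37), read 5′ to 3′ on the strand of the gene, with capitals for the stretch common to the largest number of lists. At EFNA1 (chr1:155099798-155099997, plus strand, upstream of the gene) the capitals mark 57 bp present in all 4 lists. At EPHB4 (chr7:100425489-100425688, minus strand, upstream of the gene) they mark 108 bp present in the ARID1A, ARID2 and SNF5 lists. At EFNA3 (chr1:155057731-155057930, plus strand, around exon 2) they mark 22 bp present in those same 3 lists.
EFNA1: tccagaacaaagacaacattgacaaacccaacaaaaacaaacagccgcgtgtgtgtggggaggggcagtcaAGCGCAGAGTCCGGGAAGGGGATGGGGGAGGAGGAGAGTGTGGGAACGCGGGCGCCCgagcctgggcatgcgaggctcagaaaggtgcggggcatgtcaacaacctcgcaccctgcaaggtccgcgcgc
EPHB4: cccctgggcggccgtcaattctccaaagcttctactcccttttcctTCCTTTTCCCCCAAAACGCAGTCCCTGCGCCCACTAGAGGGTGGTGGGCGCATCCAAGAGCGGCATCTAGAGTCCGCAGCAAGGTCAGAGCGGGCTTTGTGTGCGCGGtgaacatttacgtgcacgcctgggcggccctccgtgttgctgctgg
EFNA3: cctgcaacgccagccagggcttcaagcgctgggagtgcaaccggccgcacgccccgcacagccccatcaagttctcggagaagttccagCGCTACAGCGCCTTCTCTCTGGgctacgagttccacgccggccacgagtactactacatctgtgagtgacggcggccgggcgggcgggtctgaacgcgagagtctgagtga

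The other 3 genes had no stretch in more than 2 lists. At EPHA2 (chr1:16481442-16481641, minus strand, intron 1) the capitals mark 97 bp shared by an ARID1A peak and an SNF5 peak. The deposited name of that ARID1A peak is RP11-276H7.2, and a second shared stretch at the start of EPHA2 is not printed because it covers untranslated sequence. At EPHA1 (chr7:143090062-143090261, minus strand, intron 16) they mark 85 bp shared by ARID1A and SNF5. At EFNA4 (chr1:155036568-155036767, plus strand, intron 1) they mark the whole 122 bp of an ARID1A peak that met no other list.
EPHA2: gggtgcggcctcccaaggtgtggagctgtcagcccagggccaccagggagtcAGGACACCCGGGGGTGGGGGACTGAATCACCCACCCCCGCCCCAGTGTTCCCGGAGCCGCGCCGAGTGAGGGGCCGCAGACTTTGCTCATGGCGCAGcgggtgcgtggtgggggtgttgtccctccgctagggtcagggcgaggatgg
EPHA1: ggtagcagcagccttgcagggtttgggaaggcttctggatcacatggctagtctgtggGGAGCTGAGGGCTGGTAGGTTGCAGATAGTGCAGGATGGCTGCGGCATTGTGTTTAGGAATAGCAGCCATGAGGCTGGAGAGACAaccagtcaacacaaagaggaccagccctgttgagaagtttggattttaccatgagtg
EFNA4: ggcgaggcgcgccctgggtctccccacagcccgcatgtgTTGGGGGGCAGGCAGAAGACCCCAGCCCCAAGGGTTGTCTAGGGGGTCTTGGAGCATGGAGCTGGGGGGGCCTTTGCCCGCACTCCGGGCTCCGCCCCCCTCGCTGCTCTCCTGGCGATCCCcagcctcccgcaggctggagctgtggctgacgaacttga

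The 6 windows were searched on both strands for short motifs of known factors, beside 9331 windows of the same length at ARID1A promoter peaks. Those were centred on peak midpoints and could hold untranslated sequence, whereas the 6 windows were centred on the most shared stretch and left it out. The AP-1 motif TGACTCA was in 0 of the 6 and in 2.2% of the promoter windows. For TEAD factors the letters GGAATG were in 0 of the 6, compared with 7.2% of promoter windows. The forkhead (FOX) motif TGTTTAC, of interest in a liver line, was in 0 of the 6, compared with 1.61%. The ETS motif CCGGAAG was likewise in 0 windows here, compared with 9.33% at promoter peaks. The E-box CACGTG was found in none of the 6, compared with 6.27%, and the same held for the letters CCAAT, compared with 18.4%. The EFNA3 window lies around exon 2, away from the main start, although its peaks had the deposited class promoter. Promoter windows are therefore a loose match for it. The EPHA1 window lies at an intron peak. Shares in ARID1A intron windows were 6.35% for AP-1, 10.8% for TEAD, 4.9% for FOX, 1.75% for ETS, 3.51% for E-box and 20% for CCAAT. The motif of Sp and KLF factors did occur. GGGCGG occurred 2 times in the EPHB4 window and 2 times in the EFNA3 window, where both matches overlap each other, 1 time each in the EPHA2 and EFNA4 windows, and 0 times in the EFNA1 and EPHA1 windows, against 52.2% of ARID1A promoter windows with at least 1 match and 15.1% of 1653 intron windows. The letters differ in composition, since the EPHA1 window held 1 CpG at a GC content of 53% and the EFNA3 window held 20 CpG at 65%. The EPHA2 window held 13 CpG at 71%, the EFNA1 window 14 at 62%, the EPHB4 window 14 at 61.5% and the EFNA4 window 11 at 70.5%. Medians were 17 CpG and 67% in ARID1A promoter windows and 3 CpG and 51.5% in intron windows. The EPHA1 window, deep in its gene, was thus the one nearest to the intron medians. A match of letters is a description and not a bound site.

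Set against all protein-coding genes, the counts at the 10 genes read as follows. ARID1A peaks were assigned to 6 of 10 genes (Wilson 95% interval 31.3 to 83.2%), compared with 33.3% of 20136 protein-coding genes. ARID1B peaks were assigned to 2 of 10 (5.67 to 51%), compared with 17.1%, and ARID2 peaks to 4 of 10 (16.8 to 68.7%), compared with 29.7%. Some ARID peak was assigned to 6 of 10 genes, compared with 43.7%, and peaks of all 3 ARIDs to 2 of 10, EFNA1 and EPHB4, compared with 10.1%. The gene-wide share lay inside the interval in all 3 lists. Counted by position, whatever the deposited name, 6 of 10 genes had an ARID1A peak within 5000 bp of the gene body (44.1% of protein-coding genes), 2 of 10 an ARID1B peak (23.8%), 4 of 10 an ARID2 peak (39.9%) and 6 of 10 an SNF5 peak (52.6%). None of the 4 lists had a peak there for 4 of 10 genes (40.4%), and SNF5 without any ARID was found at 0 of 10 (6.05%). Within 1000 bp of the main transcript start, ARID1A peaks were at 4 of 10 genes (35.4% of 18922 genes), ARID1B at 1 of 10 (11.4%), ARID2 at 2 of 10 (30.4%) and SNF5 at 4 of 10 (41.5%). The 4 with ARID1A at the start were EPHA2, EPHB4, EFNA1 and EFNA4, and the same 4 had SNF5 there. These intervals, like those given for peaks, cover counting error only, and peaks at the same gene are not independent of each other. Nor are the genes independent draws, since EFNA4, EFNA3 and EFNA1 are neighbours on chromosome 1.

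EPHA2, a receptor that binds ephrin-A ligands, lies at chr1:16450832-16482564 on the minus strand. Its first ARID1A peak, at chr1:16481973-16482526, was 554 bp wide and centred 314 bp inside the gene, over exon 1 and the start of intron 1. It was wider than 86.2% of the ARID1A list and shared 100 bp with an SNF5 peak at chr1:16482427-16483219, which spans the start of the gene. The other ARID1A peaks of EPHA2 lay together in intron 3, at chr1:16470752-16470967 (216 bp wide) and chr1:16470434-16470509 (76 bp wide), 11704 and 12092 bp from the start. Neither met an SNF5 peak, and the nearest one was 1656 and 2114 bp away. That SNF5 peak, at chr1:16472624-16473403, was 780 bp wide, met no ARID peak and had a score of 34, above 95.7% of its list. The score is a whole number from the peak caller that ranks peaks within the SNF5 list. EPHA2 therefore had SNF5 with ARID1A at its start, and ARID1A and SNF5 at separate places farther in.

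The deposited names leave out 1 peak inside EPHA2. A further ARID1A peak at chr1:16481420-16481589 in intron 1 carried the name RP11-276H7.2, and it shared the 97 bp printed above with an SNF5 peak. Counted by position, 4 ARID1A peaks and 3 SNF5 peaks lay within 5000 bp of EPHA2, with 0 ARID1B and 0 ARID2 peaks in the deposited lists. Signal tracks were not analysed here, so these zeros speak of called peaks and not of ARID1B or ARID2 binding at EPHA2. The nearest ARID1B peak to the gene body was 22.5 kb away, at chr1:16505103-16505244, and its deposited name was ARHGEF19-AS1. By the nearest start of a protein-coding gene, that peak would belong to EPHA2, as would the ARID1A peak named RP11-276H7.2, which would give EPHA2 4 ARID1A and 1 ARID1B peaks and raise the genes with an ARID1B peak from 2 to 3 of 10. The nearest ARID2 peak was 148 kb away, farther than for 74.8% of protein-coding genes.

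ARID1A peaks without ARID1B or ARID2 peaks were assigned to EPHA2 and EFNA4 in the family, and to 8.6% of protein-coding genes. The exact counts of EPHA2, 3 with 0 and 0, were found at 26 protein-coding genes (0.129%), and 3.63% of genes had at least 3 ARID1A peaks. The intron 3 pair of EPHA2 would count as 1 peak if peaks at most 1000 bp apart were joined. By the summed difference of the 3 counts, the family gene most like EPHA2 was EFNA4 (difference of 1), then EFNA3 (difference of 2). EPHA1 and the family genes with no peak tied at a difference of 3, so the order ends in a tie there. These counts rest on the deposited names: with the nearest protein-coding start EPHA2 gains an ARID1B peak and is no longer a gene with ARID1A peaks alone. Likeness here rests on 3 counts of called peaks per gene. The zeros for ARID1B and ARID2 do not show that EPHA2 lacks binding of those subunits, so the order does not speak of binding.

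EPHB4, the receptor for ephrin-B2, lies at chr7:100400187-100425145 on the minus strand. Its ARID1A peak (chr7:100425489-100425669, 181 bp wide) and its ARID2 peak (chr7:100425535-100425642, 108 bp wide) lay upstream of the start, with centres at -434 and -444 bp from it. The ARID2 peak lay wholly inside the ARID1A peak, and both lay inside an SNF5 peak at chr7:100425393-100425767 with a score of 21. The ARID1B peak was at the other end of the gene, at chr7:100399377-100399595, past the last exon and 25659 bp from the start. It shared 69 bp with an SNF5 peak and met no other ARID. Farther upstream, an SNF5 peak at chr7:100428562-100429758 had a score of 35, above 96.4% of its list, and met no ARID peak. EPHB4 thus counted as a gene with all 3 ARIDs although its ARID1B peak and its other ARID peaks lay at opposite ends.

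EPHA1 lies at chr7:143087382-143105949 on the minus strand, and both of its ARID peaks were far from the main transcript start. The ARID1A peak (chr7:143090023-143090203, 181 bp wide) was in intron 16, 15836 bp inside the gene, and shared 85 bp with an SNF5 peak of score 17. The ARID2 peak (chr7:143092931-143092998, 68 bp wide) was in intron 11, 12984 bp inside the gene, and its nearest SNF5 peak was 2432 bp away. This ARID2 peak had the deposited class promoter, with a distance of 268 bp that matches the start of a shorter transcript with a retained intron. No peak of the 4 lists lay within 5000 bp of the main start of EPHA1.

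EPHB2 and EPHB3, receptors known for sorting cells in the intestinal epithelium, had no assigned peak. EPHB2 (chr1:23037332-23247993, plus strand) spans 210662 bp and had none of the 4 lists inside it. Its nearest peaks were 97.9 kb (ARID1A), 100 kb (ARID1B), 43.1 kb (ARID2) and 97.4 kb (SNF5) from the gene body. EPHB3 (chr3:184279573-184300196, plus strand) had its nearest peaks at 184, 199, 199 and 183 kb in the same order. Over all protein-coding genes, median distances were 15.2, 73.3, 24.1 and 1.89 kb, so both receptors were above the median in each list.

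**Figure D2:**
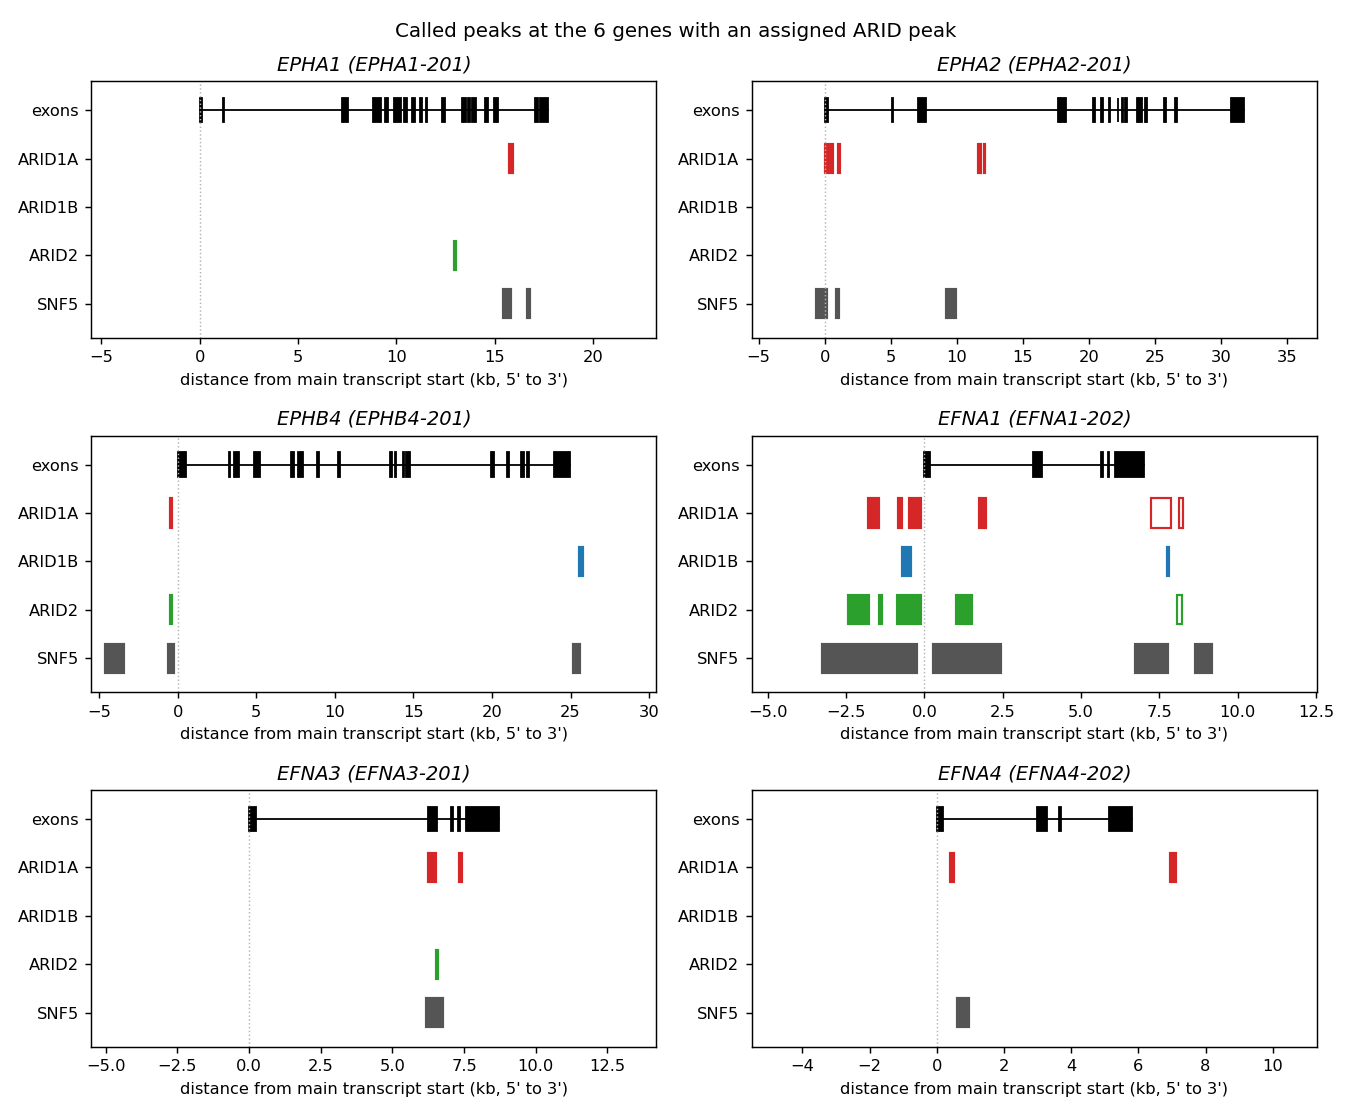
Called peaks (boxes, one row per list) along the 6 genes with an assigned ARID peak, with exons of the main transcript on top; the horizontal axis is the distance in kb from the main transcript start, 5′ to 3′. Boxes are to scale apart from their outline; filled ARID boxes are assigned to the gene, open ones and the ARID1B box beyond the 3′ end of EFNA1 carry another gene's name. ARID1A, ARID1B, ARID2 and SNF5 meet upstream of EFNA1, while the called peaks drawn at EPHA2 are of ARID1A and SNF5.

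EFNA1, which encodes ephrin-A1, lies at chr1:155100352-155107375 on the plus strand and was the most densely covered gene of the set. ARID1A peaks were at chr1:155098547-155098892 (346 bp wide), chr1:155099517-155099623 (107 bp), chr1:155099869-155100233 (365 bp) and chr1:155102082-155102323 (242 bp). The first 3 lay upstream of the main start and the last lay in intron 1, 1850 bp inside. ARID2 peaks were at chr1:155097907-155098585 (679 bp), chr1:155098904-155099011 (108 bp), chr1:155099487-155100247 (761 bp) and chr1:155101359-155101873 (515 bp), again 3 upstream and 1 in intron 1. The single ARID1B peak, chr1:155099645-155099925, was 281 bp wide. The ARID1A peaks covered 1060 bp in all, the ARID1B peak 281 bp and the ARID2 peaks 2063 bp.

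At least 4 ARID1A peaks were assigned to 1.59% of protein-coding genes, and at least 4 ARID2 peaks to 2.1%. Several of the EFNA1 peaks lie at most 1000 bp apart, so these counts are of called peaks and not of separate sites. The shares of genes with joined peaks are not given here. The ARID2 peak of 761 bp was wider than 96.3% of its list, and it held the ARID1B peak and 2 of the ARID1A peaks whole. Of the 9 peaks, 6 met another ARID and 9 met SNF5. Both intron 1 peaks were single, that is, ARID1A and ARID2 were called at separate places there, inside the same SNF5 peak (chr1:155100634-155102791, score 19). The SNF5 peak upstream, chr1:155097096-155100124, was 3029 bp wide, wider than 98.6% of the SNF5 list, with a score of 21. Its width went with an ordinary score. The 57 bp in capitals above, chr1:155099869-155099925, were the only stretch at the 10 genes that all 4 lists shared.

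Past the 3′ end of EFNA1, further peaks carried other names. ARID1A (chr1:155107569-155108221) and ARID1B (chr1:155108098-155108152) peaks were named for SLC50A1, a sugar transporter gene, and ARID1A (chr1:155108466-155108616) and ARID2 (chr1:155108405-155108566) peaks for RP11-540D14.6. They lie within 5000 bp of EFNA1 and were not counted among its 9.

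EFNA3 lies at chr1:155051313-155060014 on the plus strand, and its peaks were inside the gene rather than at its main start. An ARID1A peak (chr1:155057566-155057841, 276 bp wide) and an ARID2 peak (chr1:155057820-155057910, 91 bp wide) were centred in exon 2 and shared 22 bp. Both lay inside an SNF5 peak at chr1:155057477-155058070 with a score of 21. A second ARID1A peak (chr1:155058632-155058722, 91 bp wide) was centred in exon 4, and its nearest SNF5 peak was 561 bp away. All 3 had the deposited class promoter with distances that match the starts of shorter transcripts inside the gene, yet they were 6390 to 7364 bp from the main start.

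EFNA4 lies at chr1:155036213-155042029 on the plus strand. One ARID1A peak (chr1:155036607-155036728, 122 bp wide) was centred 451 bp inside the gene, in intron 1, with an SNF5 peak of score 20 only 75 bp away and not touching it. The other (chr1:155043145-155043328, 184 bp wide) had the deposited class intron but lay past the end of the main transcript, 7020 bp from its start. Neither met a peak of another list. The nearest ARID2 peak was 12.3 kb and the nearest ARID1B peak 34.8 kb from the gene body.

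EFNB1 (chrX:68048864-68062003, plus strand) and EFNB2 (chr13:107142093-107188010, minus strand) encode ephrin-B1 and ephrin-B2 and had no assigned peak. EFNB1 was 2441 kb from the nearest ARID1A peak, 1838 kb from ARID1B, 2412 kb from ARID2 and 340 kb from SNF5. EFNB2 was 3643 kb from ARID1A and 1682 kb from ARID1B, yet 32.4 kb from ARID2 and 32.1 kb from SNF5. The ARID1A distance exceeded that of 98.3% of protein-coding genes for EFNB1 and 99.1% for EFNB2, whereas EFNB2 was near the middle for ARID2 (53.1%). No peak of any list within 30000 bp was the case for 4 of the 10 genes, EPHB2, EPHB3, EFNB1 and EFNB2, compared with 29% of protein-coding genes. The same 4 genes were those with no peak within 5000 bp (40.4% of protein-coding genes), so the wider window adds little.

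**Figure D3:**
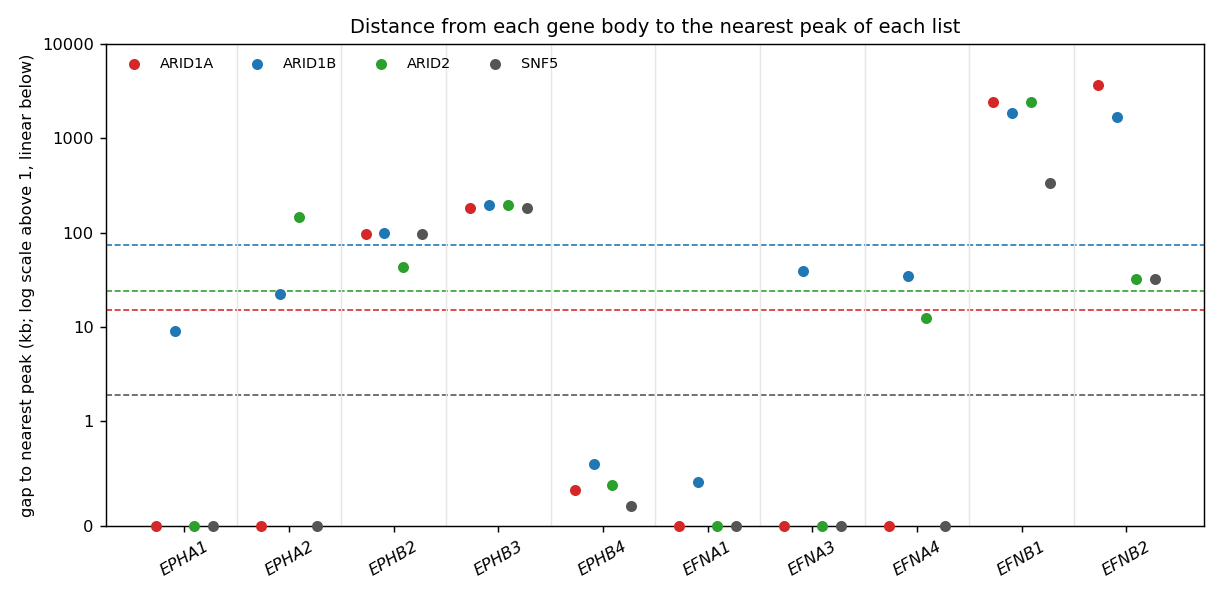
Distance in kb from each of the 10 gene bodies to the nearest peak of each list (points; vertical axis logarithmic above 1 kb and linear below, 0 for a peak inside the gene). Dashed lines are the medians over protein-coding genes (15.2 kb for ARID1A, 73.3 kb for ARID1B, 24.1 kb for ARID2, 1.89 kb for SNF5); EPHB2, EPHB3, EFNB1 and EFNB2 are above all 4 lines.

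By feature class, 15 of the 22 peaks (68.2%) were in the deposited promoter class. For ARID1A this was 8 of 13 peaks (61.5%, interval 35.5 to 82.3%), compared with 72.6% of its list, and for ARID2 it was 6 of 7 (85.7%, 48.7 to 97.4%), compared with 67%. For ARID1B it was 1 of 2, compared with 37.9%. Intron peaks made up 4 of 13 ARID1A peaks (30.8%, 12.7 to 57.6%), compared with 12.9%, and they were at EPHA1, EPHA2 and EFNA4. The ARID1B and ARID2 peaks of the 10 genes held 0 in the intron class, compared with 33.9 and 17.5% of those lists. The distal class held 1 peak of each ARID, at EFNA1 for ARID1A and ARID2 and at EPHB4 for ARID1B, compared with 12.6, 13.6 and 25.8% in the same order. The EFNA1 peaks of this class had deposited distances of 1214 bp (ARID1A) and 1688 bp (ARID2), so the class is not limited to sites far from a start. No peak was in the deposited exon class, which made up 1.88% of ARID1A, 2.36% of ARID1B and 1.89% of the ARID2 list. Each list share lay within its interval.

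Several peaks of the promoter class were not at the main start of their gene. More than 1000 bp separated the peak centre from the main start for 3 of 8 such ARID1A peaks (37.5%, 13.7 to 69.4%), compared with 15.1% of the list's promoter peaks at protein-coding genes. For ARID2 it was 4 of 6 (66.7%, 30 to 90.3%), compared with 19.2%, which lay outside the interval. The distance from the main start was chosen after seeing the data, so this is a description and no test of a difference. Of these 4 peaks, 2 were at EFNA1 and do not count as independent. The EFNA1 peak centred at -1395 bp had a deposited distance of 976 bp, so it passes the limit only with the main start used here. For ARID1B it was 0 of 1, compared with 23.9%. The genes concerned were EFNA1, EFNA3 and EPHA1. EPHA2, EPHB4, EFNA4 and also EFNA1 each had a promoter peak within 1000 bp of the main start. Those of EFNA1 were centred at -782 and -301 bp (ARID1A), -567 bp (ARID1B) and -485 bp (ARID2).

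Another ARID was met by 5 of 13 ARID1A peaks (38.5%, 17.7 to 64.5%), compared with 47.6% of the list, by 1 of 2 ARID1B peaks, compared with 40.1%, and by 4 of 7 ARID2 peaks (57.1%, 25 to 84.2%), compared with 46.9%. SNF5 was met by 8 of 13 ARID1A peaks (61.5%, 35.5 to 82.3%), compared with 71.3%, by 2 of 2 ARID1B peaks, compared with 62.9%, and by 6 of 7 ARID2 peaks (85.7%, 48.7 to 97.4%), compared with 67.2%. All 10 peaks that met another ARID also met SNF5. They lay at EFNA1, EPHB4 and EFNA3, within each gene they met the same SNF5 peak, and each overlap is counted from both ARID lists. They are therefore not 10 separate sites. Among single peaks SNF5 was met by 3 of 8 for ARID1A (list 55.1%), 1 of 1 for ARID1B (44.5%) and 2 of 3 for ARID2 (48.5%). Where 2 ARIDs met, the whole-list shares with SNF5 were 89% for ARID1A, 90.4% for ARID1B and 88.4% for ARID2. The 6 peaks away from SNF5 were the intron 3 pair of EPHA2, both peaks of EFNA4, the exon 4 peak of EFNA3 and the ARID2 peak of EPHA1.

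Peak widths differed within a gene as well as between genes. ARID1A peaks ran from 76 to 554 bp with a median of 184 bp, both ends of that range being at EPHA2, and 5 of 13 were wider than the list median of 218 bp. ARID2 peaks ran from 68 bp at EPHA1 to 761 bp at EFNA1 with a median of 108 bp, and 3 of 7, all at EFNA1, were wider than the list median of 189 bp. The ARID1B peaks were 219 and 281 bp wide, above the list median of 164 bp.

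**Figure D4:**
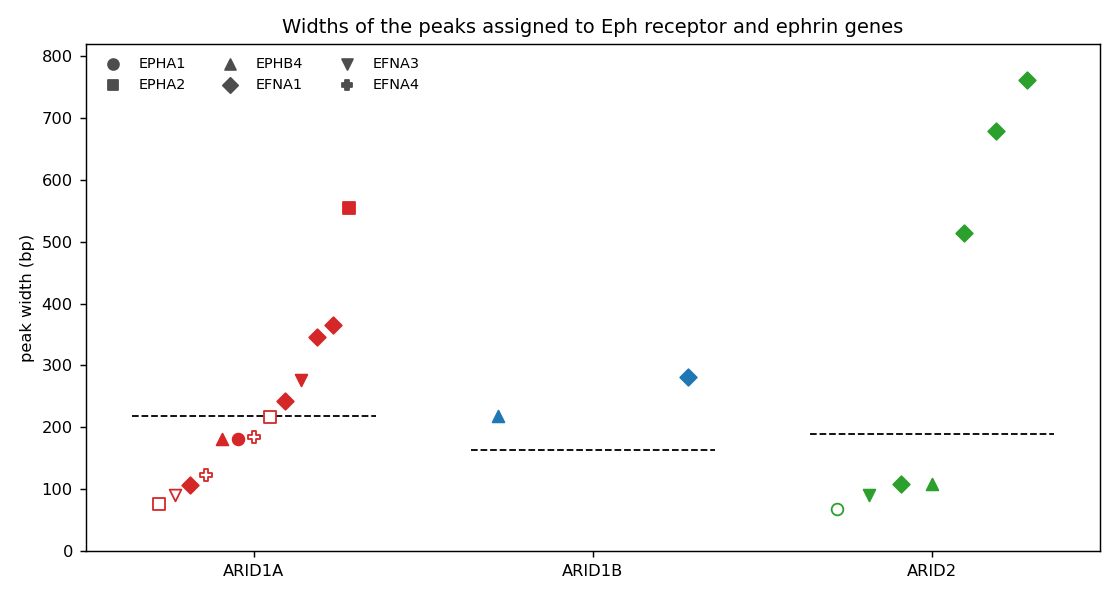
Width in bp (vertical axis) of the 22 assigned peaks by list, 1 point per peak, with the marker shape giving the gene. Filled points met an SNF5 peak, open points did not, points are ordered by width, and dashed lines are list medians (218, 164 and 189 bp); the 3 ARID2 peaks above the line are all at EFNA1.

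SNF5, the core subunit, had 14 peaks within 5000 bp of the 10 genes, at the same 6 genes that had an assigned ARID peak. Of these, 9 met an ARID peak of any deposited name and 5 did not, and 49.1% of the SNF5 list met none. The 9 include an SNF5 peak inside EPHA2 and another past EFNA1 that met only ARID peaks with other names. Scores ran from 15 to 35 with a median of 21, compared with a list median of 19 and a list range of 10 to 134, and 10 of 14 were above the list median. The 2 highest scores, 34 and 35, belonged to SNF5 peaks at EPHA2 and EPHB4 that met no ARID peak.

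Of the other 12 genes of the family, 10 had no assigned peak. EFNA2 (chr19:1285872-1301430, plus strand), another ephrin-A gene, had 1 assigned peak of each ARID in intron 1, and these did not meet each other although each met SNF5. Upstream of EFNA2, an ARID1A and an ARID2 peak named for MUM1 did overlap each other, centred at -1075 and -1041 bp from its start. A further ARID1A peak past its 3′ end was named for RPS15P9. EPHA7 had 1 ARID1B peak of the distal class (chr6:94344868-94345057) whose deposited distance was 215695 bp. The 22 family genes together had 26 assigned peaks on 8 genes (some ARID peak was at 43.7% of protein-coding genes), 3 of them with all 3 ARIDs (10.1% of protein-coding genes).

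A list of 22 signalling partners, such as kinases, adaptors and exchange factors that act with Eph receptors or ephrins, was counted in the same way. ARID1A peaks were assigned to 11 of them (33.3% of protein-coding genes), ARID1B to 7 (17.1%) and ARID2 to 8 (29.7%). Some ARID peak was assigned to 13 (43.7%), and 9 had none. Peaks of all 3 ARIDs were at VAV2, an exchange factor for small GTPases (1 ARID1A, 3 ARID1B and 3 ARID2 peaks), at the kinase genes SRC (4, 3 and 6) and YES1 (2, 1 and 1), and at PTK2, the gene of focal adhesion kinase (1, 1 and 3). SRC thus had more assigned ARID peaks than any of the 22 family genes. Among hepatocyte genes, looked at because HepG2 is a liver line, APOB, AFP and FOXA2 had peaks of all 3 ARIDs and TTR had none.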

How the data were processed

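ChIP-seq peak lists were used, with 1 list for each of ARID1A, ARID1B, ARID2 and SNF5, and libraries were grouped by the antibody in their titles. Per the study's methods, the authors aligned reads to hg19 with bowtie2, removed duplicates, merged both replicates, called broad peaks with MACS2, joined close peaks, removed blacklisted regions and named the nearest Gencode gene. Deposited positions and distances are in bp, and the deposited SNF5 score is a whole number from the peak caller; the ARID lists carry no score or count. A deposited chromatin state was not used, because nested peaks of 2 lists shared it in only 40.8 to 52.5% of cases, compared with 97.4 to 99.6% for the feature class. Coordinates are given 1-based, with 1 added to each deposited start.

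The genes and gene lists were chosen with earlier results of these data known. Lists were joined in Python 3.11.15 with pandas 2.3.3. Overlap meant at least 1 bp, and windows reached 5000 bp from a gene. Gene bodies and main transcripts (MANE Select) came from Gencode v44 lifted to GRCh37, which is not the release the authors used, and 20136 protein-coding genes formed the background. All 10 genes were found in it. Shares carry Wilson 95% intervals, and the overlap code was tested on simulated peaks. Described were all peaks at the 10 genes, other family genes with a peak, partners with all 3 ARIDs, and 1 window of 200 bp per gene at the most shared stretch free of annotated untranslated sequence. Alternatives varied the gene assignment, the distance limits, the promoter definition, the overlap and the joining of peaks. No test was run, since peaks are not replicates, and the input library was not used here.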

Additional observations from a re-analysis of the deposited data

How the results depend on the processing

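No peak was called per replicate, so leaving out a replicate could not be done, and depth limits every statement that no peak was called. No paired analysis was possible because each subunit has 1 list from merged replicates. Over 17 results and 55 alternatives, 42 values stayed within the limits set for them and 13 moved. For shares the limits were the Wilson intervals, which are wide with so few peaks, so staying within them says little about stability. The ARID1B share meeting SNF5 fell from 100 to 50% with centres at most 500 bp apart and still stayed within its limits. Of the alternatives, 3, which define a promoter by the main transcript start, were chosen after seeing the data. Asking for a reciprocal overlap of at least 50% lowered the share of peaks meeting another ARID from 38.5 to 7.69% for ARID1A, from 50 to 0% for ARID1B and from 57.1 to 14.3% for ARID2. It lowered the share meeting SNF5 to 0% in each list, from 61.5, 100 and 85.7%. SNF5 peaks were wider (list median 535 bp, compared with 218, 164 and 189 bp), which makes this rule hard to meet. Whole-list shares under it are not given here. ARID1A peaks with other names did meet it, inside EPHA2 (57.1% of the ARID1A and 50.8% of the SNF5 peak) and past EFNA1 (86.4 and 52.8%). A gap of at most 1000 bp in place of overlap raised the share of ARID2 peaks meeting another ARID to 85.7%. With a distance of at most 5000 bp as the definition, promoters made up 92.3% of ARID1A and 100% of ARID2 peaks, while a centre within 1000 bp of the main start left 28.6% of ARID2 peaks. Counting only assigned peaks within 5000 bp of a transcript start left 1 gene and 1 peak for ARID1B, and 1 gene, EFNA1, with all 3 ARIDs, since the ARID1B peak of EPHB4 is farther away. The causes of the other moves were not tested.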
